A study of Mus musculus with 3 samples.

Results

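The 10 genes examined encode receptors for colony-stimulating factors and chains of other cytokine receptors: Csf1r, Csf2ra, Csf2rb, Csf2rb2, Csf3r, Il3ra, Il7r, Il2rg, Ifngr1 and Ifngr2. They were chosen by name from the 22238 genes listed in all 3 libraries, and all 10 were found. The libraries came from wild-type (WT in the labels) C57BL/6J female mice, 10 to 12 weeks old, in which experimental autoimmune encephalomyelitis (EAE), an inflammatory disease of the spinal cord and a model of multiple sclerosis, was induced with myelin oligodendrocyte glycoprotein peptide in complete Freund's adjuvant and 250 ng of pertussis toxin at 2 and 24 hours. Cells were collected on days 14 to 15, and no library of mice without EAE was analysed here. Bone marrow monocytes (BM-Mono, 13 mice in 2 experiments) were Ly6C high cells without Ly6G or CD11c, spinal cord monocytes (SC-Mono, 18 mice in 3 experiments) were Ly6C high CD64+ cells without Ly6G, and spinal cord monocyte-derived antigen-presenting cells (SC-APC, 18 mice in 3 experiments) differed from them in low or absent Ly6C. All cells were also positive for CD45 and CD11b. One label places the SC-APC cells in the bone marrow, whereas the title, the tissue label and the study's methods place them in the spinal cord, which is followed here.

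Each population was 1 pooled library, so the differences below have no replicate check and the populations could not be tested against each other. Intervals reflect the counting of reads alone, and reads copied by PCR do not stand for separate molecules. The libraries held 33280643 estimated reads in BM-Mono, 27283795 in SC-Mono and 28209589 in SC-APC. Levels are given as TPM, a share of transcripts that corrects reads for transcript length, rescaled to the same sum over the common genes. A gene over 3 TPM in at least 1 of the libraries compared was counted as active. A change is the log2 ratio of reads scaled by size factors, with its 98% interval, and a gene is said to have risen or fallen only where the whole interval was past 2-fold. A ratio was also taken on reads divided by effective length, scaled to the same sum as TPM in place of size factors, and is called the ratio per length. It thus differs from the ratio on reads in scaling as well as in length. From BM-Mono to SC-Mono the median log2 ratio of all active genes was -0.14 on reads and -0.39 per length.

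Colony-stimulating factors act through receptors of different build. CSF-1 binds Csf1r, a receptor tyrosine kinase on which monocytes and macrophages depend. GM-CSF, IL-3 and IL-5 each bind an alpha chain (Csf2ra, Il3ra or Il5ra) that pairs with the signalling beta chain Csf2rb, and the mouse has a second beta chain, Csf2rb2, used by IL-3. G-CSF binds Csf3r, known best on neutrophils. Il2rg is the common gamma chain, which joins Il7r to form the IL-7 receptor and other chains to form receptors for IL-2, IL-4, IL-9, IL-15 and IL-21, and Il7r also joins Crlf2 to bind TSLP. Interferon gamma binds Ifngr1 together with Ifngr2. All but Csf1r signal through JAK kinases and STAT factors. GM-CSF reception by monocytes is known to be needed for EAE.

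All 8 markers of monocytes, among them Csf1r itself, were over 3 TPM in every library, and Ly6c2, the gene of a surface antigen used in the sort, was at 5205 TPM in BM-Mono, 3602 in SC-Mono and 1067 in SC-APC. Markers of other cells were also read. Those of T cells summed to 2.16 TPM in BM-Mono, 69.9 in SC-Mono and 119 in SC-APC over 8 genes, those of microglia to 14.5, 97.5 and 256 over 8 genes, and those of neutrophils to 7713, 1209 and 1350 over 9 genes. The spinal cord libraries were thus higher in the first 2 lists and lower in the third than BM-Mono. In bulk RNA, fewer cells of a type and less RNA per cell cannot be told apart.

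Of the 10 receptor genes, 9 were over 3 TPM in BM-Mono and 10 in each spinal cord library, compared with 42.2%, 42.0% and 42.4% of the common genes. Their summed level was 1835 TPM in BM-Mono, 2724 in SC-Mono and 2967 in SC-APC. The SC-APC sum rests on the transcript lengths of that library, described below. With SC-Mono lengths for the SC-APC reads, the SC-APC sum lay below that of SC-Mono. Csf1r was then at 733 TPM in place of 1134, Csf2rb at 429 in place of 745, and Csf2ra at 383 in place of 199.6. From BM-Mono to SC-Mono, 5 of the 10 rose (Csf1r, Csf2rb, Csf2rb2, Il7r and Il2rg) and 1 fell (Ifngr1), where 13.8% of all active genes rose and 10.7% fell (24.4% in either direction). In the step to SC-APC, 1 rose (Il7r) and 0 fell, where 1.93% of active genes rose and 1.7% fell (3.63% in either direction). Per length the first comparison had 4 receptor genes higher and 1 lower (12% and 15.9% of active genes, 27.8% in either direction), and the second had 0 higher and 1 lower, Csf2ra (2.08% and 4% of active genes, 6.07% in either direction). Between SC-APC and BM-Mono, 4 receptor genes rose and 1 fell on reads, where 14% of active genes rose and 11.8% fell (25.8% in either direction), and 5 rose and 2 fell per length (12%, 20.2% and 32.1% of active genes). The median log2 ratio of the 10 was 0.84 in the first comparison (all active genes, -0.14) and -0.04 in the second (all active genes, -0.04). The comparisons share libraries, so their values are not independent of each other.

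**Figure D1:**
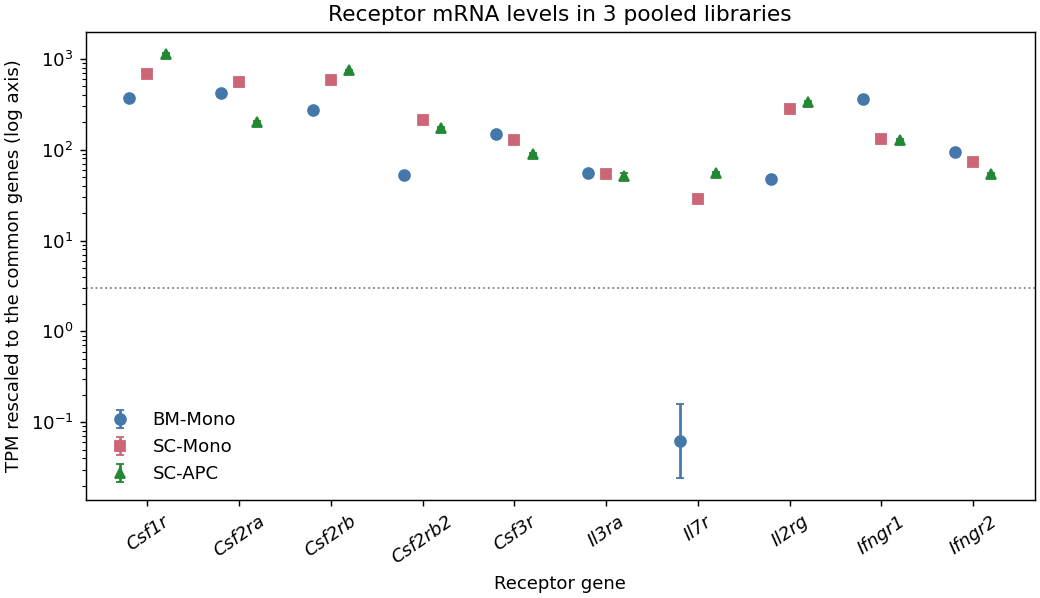
Level of each receptor gene (TPM rescaled to the common genes, log axis) in BM-Mono (circles), SC-Mono (squares) and SC-APC (triangles), with 95% Wilson intervals of counting error and a dotted line at 3 TPM. Il7r in BM-Mono, at 0.062 TPM from 4 reads, is the only value under the line.

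The order of the genes by level differed between the libraries. In BM-Mono, Csf2ra was highest, followed by Csf1r, Ifngr1, Csf2rb, Csf3r, Ifngr2, Il3ra, Csf2rb2, Il2rg and Il7r. In SC-Mono the order was Csf1r, Csf2rb, Csf2ra, Il2rg, Csf2rb2, Ifngr1, Csf3r, Ifngr2, Il3ra and Il7r, so Il2rg and Csf2rb2 stood above both chains of the interferon gamma receptor, which they were below in BM-Mono. In SC-APC the order was Csf1r, Csf2rb, Il2rg, Csf2ra, Csf2rb2, Ifngr1, Csf3r, Il7r, Ifngr2 and Il3ra. With SC-Mono lengths for the SC-APC reads, Csf2ra (383 TPM) stood above Il2rg (337 TPM) and Ifngr2 (67.6 TPM) above Il7r (62.6 TPM). The 95% intervals of neighbours overlapped for Il3ra and Csf2rb2 in BM-Mono, for Ifngr1 and Csf3r in SC-Mono, and for Il7r with Ifngr2 and Ifngr2 with Il3ra in SC-APC. In 29 of the 30 values the upper limit lay between 0.90% and 6.06% above the level, the exception being Il7r in BM-Mono.

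Lengths must be read before levels in SC-APC. The deposited values list 54432 genes for each monocyte library and 22242 for SC-APC, and the length behind a gene's value could differ accordingly. Genes with 1 transcript that has a coding frame and others without one show this, when read with at least 10 reads and a tolerance of 1 base: the mean length equalled that of the coding transcript in 1599 of 1599 such genes in SC-APC, 281 of 1608 in SC-Mono (17.5%) and 295 of 1442 in BM-Mono (20.5%). In these genes the SC-APC lengths were those of the coding transcript alone. Between SC-APC and SC-Mono the effective length differed by more than 0.5 on the log2 scale in 11.1% of active genes and in 3 of the 10 receptor genes, Csf1r, Csf2ra and Csf2rb. Between the monocyte libraries it did so in 6.03% of active genes and 0 of the 10.

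The Csf2ra mean length was 1076.6 bases in BM-Mono, 1026.6 in SC-Mono and 1848.7 in SC-APC. The annotation gives it 8 transcripts, of which 2 code for protein (1849 and 1771 bases) and 6 have no coding frame (291 to 2277 bases). Csf2rb moved the other way, from 3032.4 and 2858.3 bases in the monocyte libraries to 1836.3 in SC-APC, with 5 coding transcripts of 340 to 4900 bases. Csf1r went from 3425.9 and 3187.9 to 2260.1 bases, with 4 coding transcripts of 416 to 4701 bases. A longer mean length lowers TPM for the same reads and a shorter one raises it. Reads from transcripts outside the coding set may also be missing from the SC-APC reads, which was not tested.

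**Figure D2:**
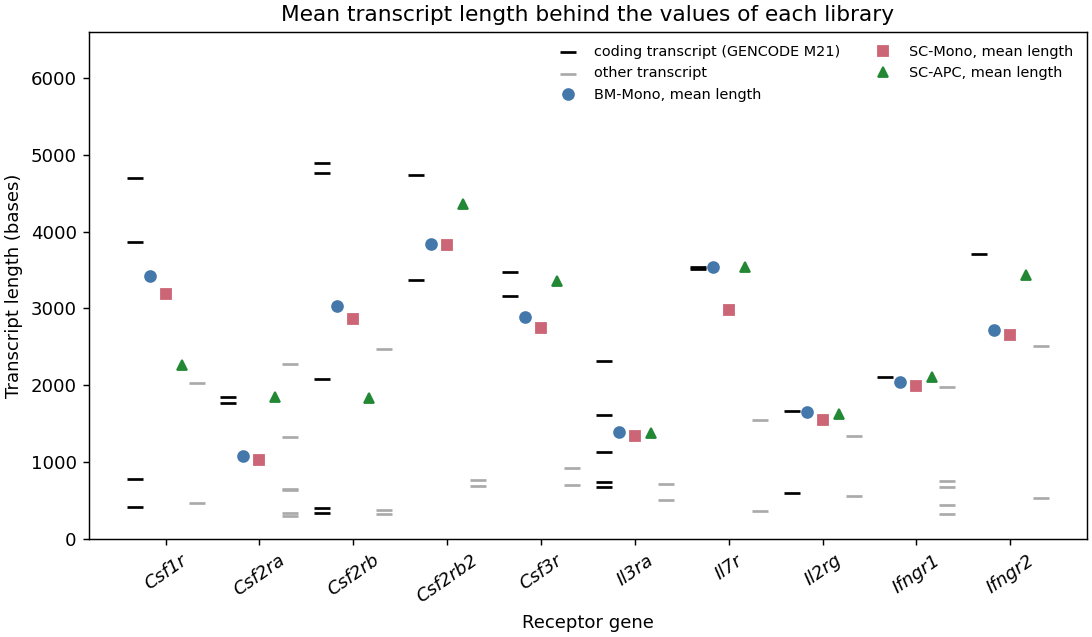
Mean transcript length (bases) behind the values of each receptor gene in BM-Mono (circles), SC-Mono (squares) and SC-APC (triangles), beside the lengths of its annotated protein-coding transcripts (black bars) and other transcripts (grey bars). In SC-APC, Csf2ra sits at its coding length of 1849 bases, whereas Csf1r and Csf2rb lie below their monocyte values.

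Csf1r (ENSMUSG00000024621.16, chr18:61100598-61132149, plus strand, GRCm38, GENCODE M21, as for all genes below), the receptor of CSF-1 and IL-34, was the most abundant of the 10 in both spinal cord libraries. It had 25353 reads in BM-Mono, 38236 in SC-Mono and 47827 in SC-APC, or 374, 676 and 1134 TPM. From BM-Mono to SC-Mono it rose by a log2 ratio of 1.08 (98% interval 1.05 to 1.10), close to the 2-fold line. The ratio was 0.85 per length and 0.89 where libraries were scaled by total reads, neither a rise by this rule. The log2 ratio of its effective lengths was -0.12, so the lower value per length comes from the scaling and not from length. The call was kept per length with size factors computed per length, and in 8 of 13 alternatives. From SC-Mono to SC-APC the ratio was 0.17 (0.14 to 0.19) on reads and 0.75 (0.72 to 0.77) per length. With the SC-Mono length used for both libraries, the SC-APC level was 733 TPM, near the 676 of SC-Mono. Between SC-APC and BM-Mono the ratio was 1.24 on reads and 1.60 per length, a rise on both scales. On reads, this call and that from BM-Mono to SC-Mono were lost where a coefficient of variation of 0.2 or 0.4 between libraries was assumed. Microglia express Csf1r, and their markers were read beside it. P2ry12, the most abundant, was at 10.1, 36.0 and 85.6 TPM. On reads, 7 of 8 microglia markers rose in each of the first 2 comparisons, where 13.8% and 1.93% of all active genes did. Csf1r rose on reads in the first of these alone. In the second the median log2 ratio of the microglia markers was 1.40, against 0.17 for Csf1r. Per length 7 and 6 rose. In BM-Mono 1 of the 8 was over 3 TPM, and the others were active through the spinal cord libraries. In BM-Mono the microglia markers Sall1 and Slc2a5 were at 0 reads. The spinal cord sort took cells with high CD45, a gate meant to leave microglia out, and the part of microglia in the Csf1r levels was not tested.

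The GM-CSF receptor alpha chain, Csf2ra (ENSMUSG00000059326.7, chr19:61223957-61228429, minus strand), had 7642 reads in BM-Mono, 8383 in SC-Mono and 6652 in SC-APC. Its level was 425, 556 and 199.6 TPM, so by TPM SC-APC was the lowest library. The log2 ratio of SC-Mono to BM-Mono was 0.61 (0.56 to 0.67) on reads and 0.39 per length, with no rise. That of SC-APC to SC-Mono was -0.49 (-0.54 to -0.43) on reads, and -1.48 (-1.53 to -1.42) per length, a fall on the second scale alone. Its reads in SC-APC, divided by the SC-Mono length, gave 383 TPM. Against BM-Mono the SC-APC value changed sign with the scale, 0.12 on reads and -1.09 per length. That fall was called in 1 of 12 alternatives, per length with the scaling of TPM. It was not called per length with size factors computed per length.

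Csf2rb (ENSMUSG00000071713.6, chr15:78325752-78353847, plus strand), the beta chain shared by GM-CSF, IL-3 and IL-5, had 16350, 29462 and 24965 reads in BM-Mono, SC-Mono and SC-APC, and 274, 584 and 745 TPM. It rose from BM-Mono to SC-Mono on both scales, by 1.33 (1.30 to 1.36) on reads and 1.09 per length, a call lost where a coefficient of variation of 0.2 or 0.4 between libraries was assumed. From SC-Mono to SC-APC the log2 ratio was -0.40 (-0.42 to -0.37) on reads and 0.35 (0.32 to 0.38) per length, so its direction followed the scale and neither value passed 2-fold. The ratio of Csf2rb to Csf2ra in TPM was 0.646 in BM-Mono, 1.05 in SC-Mono and 3.73 in SC-APC. With SC-Mono lengths for the SC-APC reads it was 1.12 in SC-APC. The high ratio of the beta to the alpha chain in SC-APC was thus seen only with the lengths of that library.

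Csf2rb2 (ENSMUSG00000071714.7, chr15:78282507-78305721, minus strand), the beta chain specific to IL-3, lies beside Csf2rb and is nearly identical to it. The coding sequences of Csf2rb-206 and Csf2rb2-201, 2691 and 2637 bases, had 2505 identical and 126 different aligned bases (95.2% identity) and 66 gap columns. Their longest shared run was 242 bases, and 39.6% of the words of 31 bases in the Csf2rb coding sequence also stood in that of Csf2rb2, so reads of these genes can be shared or moved between them in the estimates. The 60 coding bases in which they differ most are shown because reads over differing bases are the ones that tell the genes apart. Capitals mark the 13 bases that differ. They are from GENCODE M21, and positions count from 1 at the start codon (304 to 363 of Csf2rb, 307 to 366 of Csf2rb2).
Csf2rb: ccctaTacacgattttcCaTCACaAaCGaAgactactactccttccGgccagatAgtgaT
Csf2rb2: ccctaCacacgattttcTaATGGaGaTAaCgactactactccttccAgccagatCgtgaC

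Csf2rb2 had 4015 reads in BM-Mono, 14621 in SC-Mono and 14836 in SC-APC, and 52.4, 213 and 173 TPM. Both spinal cord libraries were above BM-Mono. The rise from BM-Mono to SC-Mono was 2.35 (2.29 to 2.41) on reads and 2.02 per length, larger than that of Csf2rb on either scale, with intervals that did not overlap. Its call was lost where a coefficient of variation of 0.4 between libraries was assumed. Between SC-Mono and SC-APC the values were -0.14 (-0.17 to -0.10) and -0.30 per length. With the reads of both beta chain genes summed as 1 gene, the log2 ratio was 1.60 from BM-Mono to SC-Mono, a rise, and -0.30 from SC-Mono to SC-APC. The ratio of Csf2rb to Csf2rb2 in TPM was 5.24 in BM-Mono, 2.75 in SC-Mono and 4.31 in SC-APC (2.29 in SC-APC with SC-Mono lengths).

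Il3ra (ENSMUSG00000068758.8, chr14:14346275-14356011, plus strand), the IL-3 alpha chain, was the steadiest of the 10 by level. It had 1345, 1108 and 1223 reads in BM-Mono, SC-Mono and SC-APC, and 55.7, 53.6 and 51.7 TPM. Its log2 ratios were 0.20 (0.07 to 0.34) and -0.01 (-0.15 to 0.13) on reads, and -0.06 and -0.05 per length. IL-3 receptors are also carried by basophils and mast cells, whose 5 markers summed to 2.01, 0.665 and 0.904 TPM, with none over 3 TPM and Fcer1a, which encodes their IgE receptor alpha chain, at 0 reads in both spinal cord libraries. Il5ra, the IL-5 alpha chain, had 5, 22 and 20 reads and was not active.

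Csf3r (ENSMUSG00000028859.14, chr4:126024550-126044440, plus strand), the G-CSF receptor, had 8294 reads in BM-Mono, 6062 in SC-Mono and 5800 in SC-APC, and 147, 127 and 89.3 TPM. The log2 ratio was 0.03 (-0.03 to 0.09) from BM-Mono to SC-Mono and -0.22 (-0.28 to -0.16) from SC-Mono to SC-APC. Per length these were -0.22 and -0.51. Neither step passed 2-fold on either scale, and 6 of the 8 active neutrophil markers fell in the first of them (10.7% of all active genes) while Retnlg and Cxcr2 rose (13.8%). In the second step 3 of the 8 rose and 0 fell on either scale, with a median log2 ratio of 0.90 on reads (all active genes, -0.04, of which 1.93% rose on reads). Those were Ngp, by 2.68 (186, 24.3 and 157 TPM in BM-Mono, SC-Mono and SC-APC), Ltf, by 2.43 (27.6, 9.76 and 34.1 TPM), both of neutrophil granules, and Retnlg, by 1.82 (1.77, 16.7 and 57.9 TPM). S100a8, the most abundant neutrophil marker, which monocytes also express, was at 4471, 678 and 498 TPM. Ly6g, the antigen used to remove neutrophils, had 38, 22 and 24 reads. The 5 markers of neutrophil precursors, led by Prtn3, summed to 651, 64.9 and 23.2 TPM, and all 5 fell from BM-Mono to SC-Mono.

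**Figure D3:**
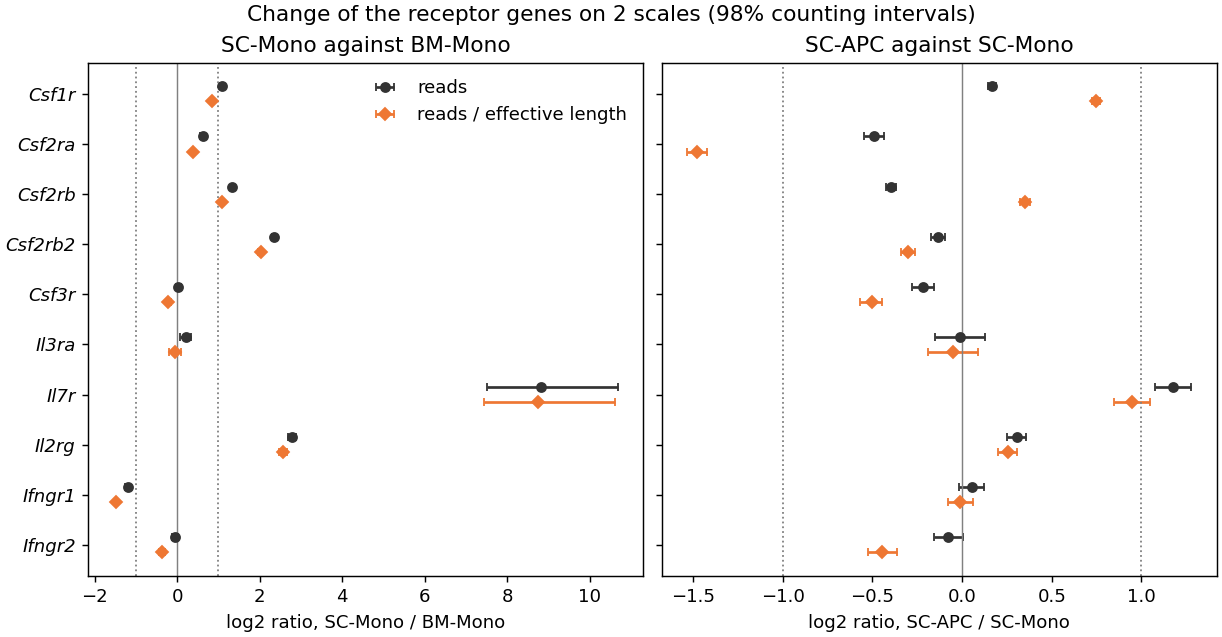
Log2 ratios of the receptor genes from BM-Mono to SC-Mono (left) and from SC-Mono to SC-APC (right), on reads (circles) and on reads divided by effective length (diamonds), with 98% intervals of counting error and dotted lines at a 2-fold change. The horizontal axes differ. In the right panel the scales disagree in sign for Csf2rb, and Csf2ra is beyond 2-fold per length alone.

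Il7r (ENSMUSG00000003882.5, chr15:9505788-9530176, minus strand), the IL-7 receptor alpha chain, showed the largest ratio of the 10. It had 4 reads in BM-Mono, 1508 in SC-Mono and 3796 in SC-APC, or 0.062 (95% interval 0.024 to 0.16), 28.7 and 55.3 TPM. BM-Mono was barely above the floor of 3 reads. The rise from BM-Mono to SC-Mono was 8.82 (7.50 to 10.69) on the log2 scale on reads and 8.75 per length. From SC-Mono to SC-APC it rose by 1.18 (1.07 to 1.28) on reads, whereas per length the ratio was 0.95 (0.85 to 1.05), whose interval includes 2-fold. The call on reads was also lost where a coefficient of variation of 0.2 or 0.4 between libraries was assumed. The Il7r mean length was 3540.0 bases in BM-Mono, 2981.1 in SC-Mono and 3540.0 in SC-APC.

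Il2rg (ENSMUSG00000031304.18, chrX:101264378-101268255, minus strand), the common gamma chain, had 1411, 6992 and 9633 reads in BM-Mono, SC-Mono and SC-APC, and 47.6, 282 and 337 TPM. It rose 6.92-fold from BM-Mono to SC-Mono, a log2 ratio of 2.79 (2.69 to 2.89), and 2.57 per length, a call lost where a coefficient of variation of 0.4 between libraries was assumed. The values from SC-Mono to SC-APC were 0.31 (0.25 to 0.36) and 0.26 per length, short of 2-fold. Its mean length was alike in the 3 libraries, 1644.9, 1552.8 and 1621.2 bases.

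T cells carry Il7r and Il2rg, and T cell markers moved with both genes. Of 8 T cell markers 0 were over 3 TPM in BM-Mono and 7 in SC-Mono, so these 7 were active through SC-Mono. Trac, the constant region of the T cell receptor alpha chain, had 0 reads in BM-Mono, 190 in SC-Mono and 346 in SC-APC. Thy1 was the most abundant in BM-Mono and SC-APC (1.65 and 38.3 TPM), and Cd3g and Cd4 were at 0 reads with Trac in BM-Mono. In SC-APC against SC-Mono, 0 of the 7 rose by this rule on reads (1.93% of all active genes) and 1 rose per length (2.08%). Their median log2 ratio on reads was 0.74 (all active genes, -0.04). NK cell markers summed to 3.74, 7.40 and 9.48 TPM over 4 genes, led by Nkg7, with Ncr1 at 0 reads in BM-Mono and SC-Mono. The spinal cord sort took CD11b+ CD64+ cells, and the part of T cells in the Il7r and Il2rg levels was not tested.

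The promoters of Il7r and Csf2rb2 are shown because these genes rose in the same comparison and were the ones among the receptor genes to hold the letters of a STAT motif. The window was the 250 bases before the RefSeq gene start on GRCm38.p6, which was given for 8 of the 10 genes (all but Csf1r and Csf2rb). Both strands were searched. TTCNNNGAA, the palindrome bound by STAT factors, stood in 2 of the 8 and in 7.02% of 32851 promoter windows of the same length. The interferon regulatory factor motif searched, GAAA, any 2 bases and GAAA again, stood in 0 of 8 (2.98% of all), and GAGGAAGT, bound by PU.1, in 0 of 8 (2.44% of all). Capitals mark the match, which begins 142 bases before the start in Il7r (chr15:9529877-9530126, minus strand) and 15 bases before it in Csf2rb2 (chr15:78305722-78305971, minus strand). In GENCODE M21, 4 of the 8 windows overlap the gene, whose start differs from that of RefSeq. The Il7r window lies before the first base of both coding transcripts (9529835 in Il7r-201 and 9529828 in Il7r-204) but wholly inside Il7r-203, a transcript without a coding frame that starts at 9530176. Of its bases 86 are in the first exon of Il7r-203, and the match (chr15:9530010-9530018) is in the intron that follows. The Csf2rb2 window lies before all transcripts of that gene. A match is a description of the letters and not evidence of binding.
Il7r: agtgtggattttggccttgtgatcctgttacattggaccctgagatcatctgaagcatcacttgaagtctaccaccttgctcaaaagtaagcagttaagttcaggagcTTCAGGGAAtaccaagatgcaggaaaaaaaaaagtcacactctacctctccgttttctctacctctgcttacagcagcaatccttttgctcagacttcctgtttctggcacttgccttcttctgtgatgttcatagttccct
Csf2rb2: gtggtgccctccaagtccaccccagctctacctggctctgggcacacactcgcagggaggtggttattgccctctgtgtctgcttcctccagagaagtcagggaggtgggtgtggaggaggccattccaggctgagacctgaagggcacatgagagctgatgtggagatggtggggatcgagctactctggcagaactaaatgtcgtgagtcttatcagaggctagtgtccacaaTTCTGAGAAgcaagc

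Chains that pair with the gamma chain or with Il7r, Csf2rb and their relatives were read as a list of 9, of which 7 were active (4 were over 3 TPM in BM-Mono). In SC-Mono, 5 of the 7 rose from BM-Mono and 0 fell, with a median log2 ratio of 2.24 (all active genes, -0.14, of which 13.8% rose and 10.7% fell). Il4ra, the IL-4 alpha chain, was at 62.1, 228 and 166 TPM in BM-Mono, SC-Mono and SC-APC and rose by 2.24. Il21r, the IL-21 chain, was at 1.66, 63.4 and 70.1 TPM and rose by 5.57. Il15ra, which presents IL-15, was at 16.7, 54.8 and 45.7 TPM and rose by 1.79. The chains of the IL-2 receptor rose from 1 read each in BM-Mono: Il2ra, the alpha chain, had 196 reads in SC-Mono and 731 in SC-APC, with a first log2 ratio of 7.35 (5.35 to 10.86), and Il2rb, the beta chain, had 403 and 795, with a ratio of 8.39 (6.40 to 11.89). In SC-APC against SC-Mono 1 of the 7 rose, Il2ra by 1.74 (1.47 to 2.01), and the median was -0.25 (all active genes, -0.04, of which 1.93% rose). Crlf2, which joins Il7r for TSLP, was at 64.7, 102 and 85.5 TPM, and Il13ra1, an IL-13 chain, at 107, 86.3 and 72.0 TPM, both without a call. Il2ra and Il2rb are also carried by T cells and NK cells, whose marker values are given above.

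Ifngr1 (ENSMUSG00000020009.13, chr10:19591949-19610229, plus strand), the ligand-binding chain for interferon gamma, was the 1 receptor gene that fell from BM-Mono to SC-Mono, a call lost where a coefficient of variation of 0.2 or 0.4 between libraries was assumed. It had 13868 reads in BM-Mono, 4308 in SC-Mono and 4981 in SC-APC, and 363, 129.7 and 129 TPM. The fall was -1.21 (-1.26 to -1.15) on the log2 scale on reads and -1.49 per length. In the second comparison the ratio was 0.05 (-0.02 to 0.12) on reads and -0.01 per length. Ifngr2 (ENSMUSG00000022965.8, chr16:91547072-91565623, plus strand), the partner chain, had 4979, 3414 and 3610 reads, and 94.7, 73.8 and 54.3 TPM. Its log2 ratios were -0.06 (-0.14 to 0.01) and -0.08 (-0.16 to 0.00) on reads, and -0.36 and -0.44 per length, none beyond 2-fold. The ratio of Ifngr1 to Ifngr2 in TPM was 3.83 in BM-Mono, 1.76 in SC-Mono and 2.37 in SC-APC.

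**Figure D4:**
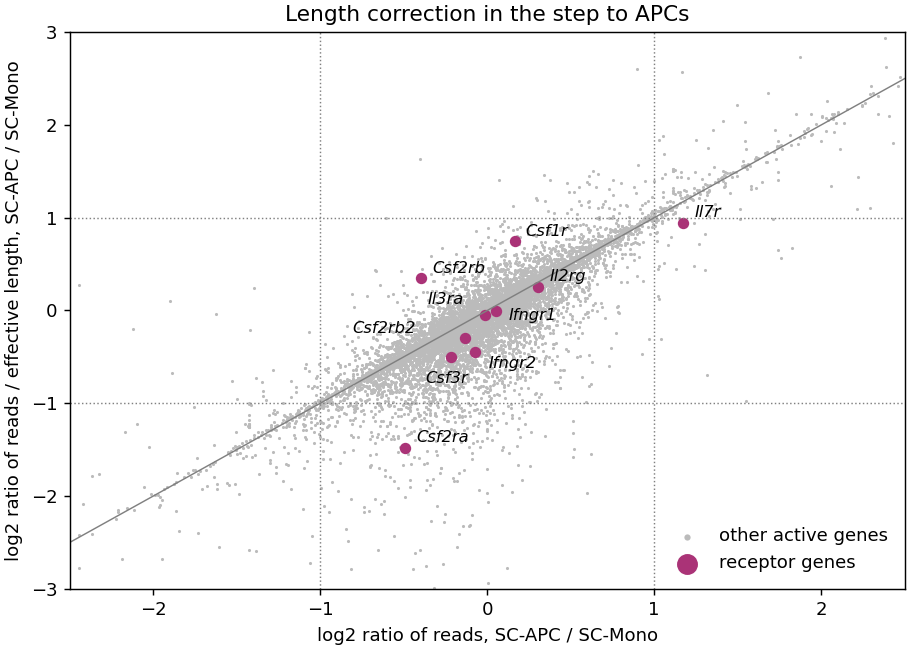
Log2 ratio of SC-APC to SC-Mono on reads (horizontal axis) against the same ratio on reads divided by effective length (vertical axis) for active genes (grey) and the receptor genes (labelled), with a line of equality and dotted lines at a 2-fold change. Csf1r and Csf2rb lie above the line of equality and Csf2ra far below it.

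The ligands of these receptors were read in the same libraries. Of 14 ligand genes, 3 were active from BM-Mono to SC-Mono, 1 of them over 3 TPM in BM-Mono, and the other 2 rose (13.8% of all active genes rose). Csf1, the ligand of Csf1r, was at 1.10 TPM in BM-Mono, 34.8 in SC-Mono and 43.2 in SC-APC and rose by 5.28 (4.91 to 5.69). Ifng, interferon gamma, had 0 reads in BM-Mono, 129 in SC-Mono and 443 in SC-APC, at least 60.05-fold higher in SC-Mono on reads and at least 28.2-fold per length, against a floor of 3 reads per library, and it rose by 1.62 (1.29 to 1.96) from SC-Mono to SC-APC. Csf2, which encodes GM-CSF, had 0, 27 and 91 reads, and it was active in SC-APC alone at 7.92 TPM, with a log2 ratio of 1.57 (0.87 to 2.34) to SC-Mono that did not pass. Il15 was at 15.2, 10.7 and 4.15 TPM without a call in either comparison on reads. Il34, the other Csf1r ligand, had 0, 10 and 4 reads, Csf3, which encodes G-CSF, 0, 21 and 6, and Il3 0, 1 and 2, while Il9 was at 0 reads in all 3 libraries. Ifng and Csf2 are T cell products, and the T cell markers given above were higher in the spinal cord libraries. The part of T cells in these ligand reads was not tested.

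JAK and STAT genes, which carry the signal of all these receptors but Csf1r, were read as a list of 10, all active. From BM-Mono to SC-Mono 2 rose and 1 fell, with a median of -0.19 (all active genes, -0.14, of which 13.8% rose and 10.7% fell). Jak2, used by Csf2rb and Ifngr2, rose by 1.97 (42.7, 139 and 112 TPM in BM-Mono, SC-Mono and SC-APC), and Stat2, used by type I interferon, by 1.57 (43.0, 124 and 38.7 TPM). Stat5b, used by the beta and gamma chains, fell by 1.24 on the log2 scale (58.4, 19.3 and 16.5 TPM), and Stat5a had a ratio of -0.87 without a call (28.1, 12.9 and 16.9 TPM). Jak3, which binds the gamma chain, was at 12.5, 22.1 and 24.8 TPM, with 1.12 (0.99 to 1.26) just short of a rise. Per length 2 rose and 2 fell, the added fall being that of Tyk2 (-1.18). In SC-APC, Stat4 rose from SC-Mono by 2.08 (2.75 TPM to 10.5), where 1.93% of all active genes rose. T cells and NK cells also express Stat4, and their markers are given above. From SC-Mono to SC-APC the log2 ratio of Stat2 was -1.68 per length, a fall, and -0.70 on reads. Stat3 and Stat6 were among the most abundant, with Stat3 at 125, 159 and 90.0 TPM and Stat6 at 152, 94.7 and 85.2 TPM, both without a call.

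Inhibitors and adaptors of these receptors were active in 14 of 14, of which 11 were over 3 TPM in BM-Mono. Cish, Socs1 and Socs2 were at 0.24, 0.52 and 0.32 TPM in BM-Mono and were active through the spinal cord libraries, where they were higher. From BM-Mono to SC-Mono 5 rose (Cish, Socs1, Socs2, Socs3 and Ptpn2) and 0 fell, with a median of 0.21 (all active genes, -0.14, of which 13.8% rose). Per length 4 rose, since Ptpn2, at 1.34 on reads, was at 0.94 (0.82 to 1.06). Cish, an inhibitor induced by STAT5, had 15 reads in BM-Mono, 2274 in SC-Mono and 1703 in SC-APC and rose by 7.66 (6.89 to 8.60). Socs3, an inhibitor that acts on Csf3r among others, was at 27.8, 909 and 772 TPM and rose by 5.35. Socs2 rose by 7.56 on reads, from 8 in BM-Mono, and by 6.54 per length, and Socs1, an inhibitor of interferon gamma signalling, by 5.78. The other genes of the list had no call in either comparison, among them Ptpn6, the phosphatase SHP-1, at 483, 258 and 309.8 TPM, the kinase Lyn at 361, 229.7 and 142 TPM, and the adaptor Grb2 at 237, 284 and 315 TPM. In the step to SC-APC 0 of 14 rose or fell, where 3.63% of all active genes did.

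Genes known as STAT5 targets were active in 10 of 11 from BM-Mono to SC-Mono, with a median log2 ratio of 5.62 (all active genes, -0.14), or 5.47 with Ccl17, at 0 reads in BM-Mono, set to its lower bound. The 10 rose, where 13.8% of all active genes did, but 5 of the 11 were over 3 TPM in BM-Mono, and the other 5 active genes passed that threshold through SC-Mono, where they were higher. Pim1, a survival kinase, was at 217, 1242 and 704 TPM in BM-Mono, SC-Mono and SC-APC and rose by 3.01. Osm, the cytokine oncostatin M, was at 14.8, 830.2 and 401 TPM and rose by 6.21. Ccnd1, cyclin D1, had 2, 956 and 1601 reads, a ratio of 8.97 (7.31 to 11.58). In SC-APC against SC-Mono 2 of 11 rose, the chemokines Ccl22 by 5.58 and Ccl17 by 3.97, and Id1, an inhibitor of DNA binding, fell from 130.8 to 46.2 TPM, as did Osm per length (-1.05), while the median was 0.01. Of all active genes 1.93% rose and 1.7% fell in this comparison (2.08% and 4% per length), with a median of -0.04. Genes known as interferon gamma targets were active in 11 of 11 (8 were over 3 TPM in BM-Mono), and 10 rose from BM-Mono to SC-Mono, with a median of 4.93. Per length 9 rose, since Psmb8, at 1.06 (1.01 to 1.11) on reads, was at 0.73 (0.68 to 0.79). Its effective length was alike in BM-Mono and SC-Mono (721.2 and 714.2 bases), so that difference comes from the scaling. Nos2, inducible nitric oxide synthase, had 8, 20683 and 20867 reads and rose by 11.70, Cxcl10 rose by 7.43 and Cxcl9 by 6.71. Gbp2, a guanylate-binding protein, was at 44.5, 1081 and 585 TPM, and Psmb8, an immunoproteasome subunit, at 448, 746 and 615 TPM. Irf1, a transcription factor, was at 90.5, 649.8 and 429 TPM. The 1 gene without a call was Irf8, at 222, 227 and 176 TPM. Of these genes Cxcl10 fell from SC-Mono to SC-APC by 1.66 on the log2 scale (1423 TPM to 444), and 0 rose. Their median was -0.59 (all active genes, -0.04, of which 1.93% rose and 1.7% fell). Ifngr1 fell in the comparison in which 10 of these 11 genes rose. Cish, Socs1 and Socs2 stand in 2 lists each and are counted in both.

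Between SC-APC and BM-Mono, 14% of all active genes rose and 11.8% fell on reads, and 12% and 20.2% per length. Of 4 active ligands 3 rose (Csf1, Csf2 and Ifng), each under 3 TPM in BM-Mono and active through SC-APC. So did 5 of 7 partner chains, 10 of 11 STAT5 targets and 9 of 11 interferon gamma targets (8 per length). In BM-Mono 4 of the 9 listed partner chains, 5 of the 11 STAT5 targets and 8 of the 11 interferon gamma targets were over 3 TPM. The other genes of these lists that rose were active through SC-APC, where they were higher. Jak2, Jak3 and Stat4 rose and Tyk2 and Stat5b fell among the 10 JAK and STAT genes. Per length Jak2 alone of these rose, with Jak3 at 0.99 (0.86 to 1.12) and Stat4 at 1.24, its interval starting at 0.99, and the same pair fell. Of the 14 inhibitors and adaptors 5 rose (4 per length), and Lyn, a kinase that binds several of these receptors, fell, joined per length by the adaptor Sh2b3. Il15 also fell per length (-1.86).

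**Figure D5:**
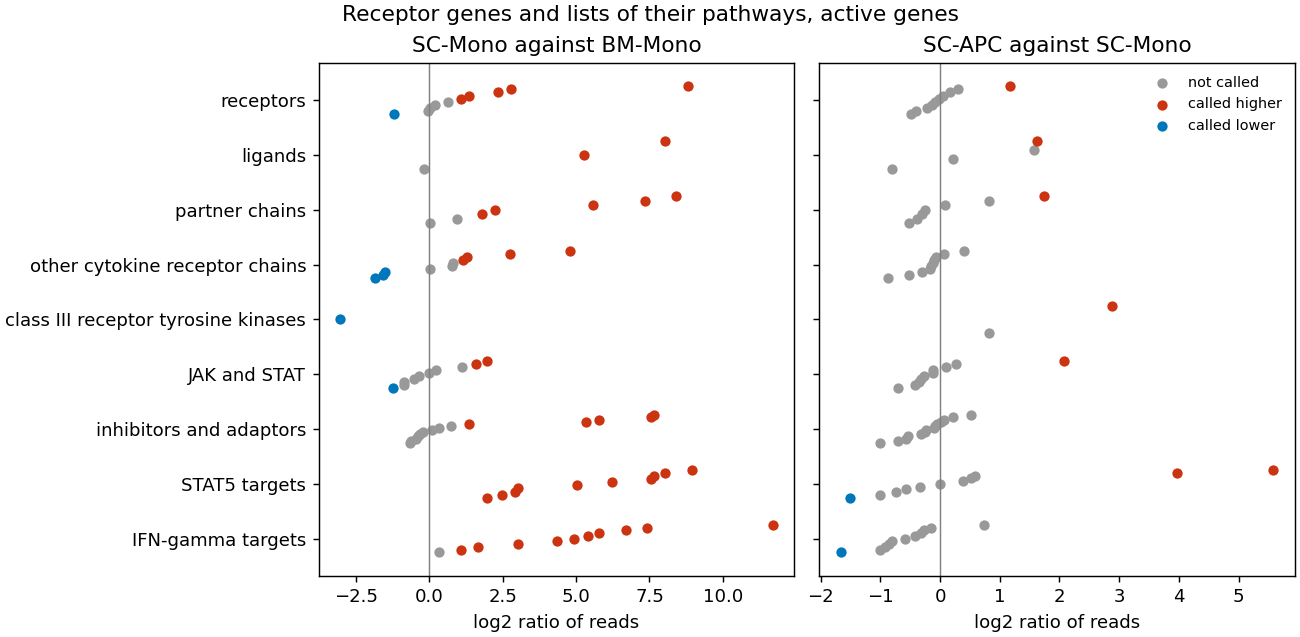
Log2 ratio of reads of each active receptor gene and each active gene of the pathway lists, from BM-Mono to SC-Mono (left) and from SC-Mono to SC-APC (right), red where the gene rose, blue where it fell and grey where there was no call. The horizontal axes differ, and points are spread vertically within a list so that they can be seen. In the left panel all 10 STAT5 targets and 10 of 11 interferon gamma targets are red, and in the right panel most genes are grey.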

How the data were processed

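RNA-Seq of 1 pooled library per population was analysed. The authors estimated expression with Salmon (0.14.1 in the submitters' processing notes) on GENCODE vM22, pooling the transcripts of a gene, and deposited TPM, estimated counts of reads (which hold fractions of reads) and lengths. The transcript set of SC-APC differs from that of the monocyte libraries. Here, the 22238 common genes were compared. TPM was rescaled over them, estimated counts were rounded to whole reads, and 1 read was added. Names and coordinates came from GENCODE M21 (GRCm38), which matched 99.0% of these genes by identifier with version.

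The log2 ratio of 2 libraries is the median of a ratio of gamma distributions of the reads, scaled by median-of-ratios size factors (1.21 in BM-Mono, 0.864 in SC-Mono and 0.963 in SC-APC), with percentiles 1 and 99 as its 98% interval. The rule for calls, with the whole interval past 2-fold, follows the definition of GFold, which the study used, computed anew. The printed ratios are medians and not GFold values. Ratios per length were scaled by the sum of reads divided by effective length over the common genes, in place of the size factors. A count test with 1 library per population is not possible. Calls are beyond 2-fold with TPM over 3 in at least 1 library, where the study's threshold of 2 on the log2 scale was taken to mean log2(TPM + 1). Levels have 95% Wilson intervals. The floor is 3 reads. The calculation was tested on simulated data. Total reads in place of size factors shift every log2 ratio by -0.18 (SC-Mono against BM-Mono), 0.04 (SC-APC against SC-Mono) or -0.14 (SC-APC against BM-Mono).

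The receptor genes, 8 pathway lists and 11 marker lists were chosen with earlier results of these data known. Results on 2 genes of these lists are not reported here, and the lists were counted without them. Named were all receptor genes, of each pathway list the 4 most abundant genes and the called genes with the 4 largest ratios in each comparison, the leading and absent markers, and the 3 genes nearest in pattern to Csf1r, Csf2rb, Il7r and Csf3r. Other genes were named after their values were seen, for their role beside a receptor. Alternatives were length correction, total reads or TMM factors, TPM thresholds, wider percentiles, 0.5 added reads, an assumed spread between libraries, a plain 2-fold change, other gene sets, summed beta chain reads, TPM as deposited and SC-Mono lengths. The check of transcript lengths, the order with SC-Mono lengths, the GENCODE starts beside the promoter windows and the nearest genes on reads were added after the data were seen. TMM factors came from edgeR 4.0.16 in R 4.3.3, and all else was computed in Python 3.11.15 with scipy 1.17.1, pandas 2.3.3, numpy 2.4.6 and, for figures, matplotlib 3.10.9.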

Additional observations from a re-analysis of the deposited data

How the results depend on the processing

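With 1 library per population, leaving out a library was not possible, and the spread between animals is unknown. No paired analysis was possible because each population is 1 library. With an assumed coefficient of variation of 0.2 between libraries, 3 receptor genes rose and 0 fell from BM-Mono to SC-Mono (5 and 1 without it), 0 rose from SC-Mono to SC-APC (1 without it), and 0 fell from BM-Mono to SC-APC (1 without it). With 0.4 these were 1, 0, 0 and 0, and 2 rose from BM-Mono to SC-APC in place of 4. The calls lost from BM-Mono to SC-Mono at 0.2 were those of Csf1r, Csf2rb and Ifngr1, and at 0.4 also those of Csf2rb2 and Il2rg. Il7r was the receptor gene that still rose from BM-Mono to SC-Mono at 0.4.

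Per length, 0 receptor genes rose and 1 fell from SC-Mono to SC-APC, also with size factors computed per length (0 and 1), 2 fell from BM-Mono to SC-APC, and 4 pathway genes fell from SC-Mono to SC-APC in place of 2. Csf2ra changed sign in SC-APC against BM-Mono, from 0.12 to -1.09, a fall called in 1 of 12 alternatives, and the lengths that differ are given in the report. Csf1r from BM-Mono to SC-Mono lost its call at 0.89 with total reads, 0.85 per length and 0.83 over all genes of the monocyte libraries. It kept the call per length with size factors computed per length. Csf2rb from BM-Mono to SC-APC, 0.94 on reads and not called, was called at 1.44 per length and at 1.29 with Csf2rb2 reads added. Of the counts over the receptor genes or over the pathway lists together, the other 67 kept within 1.5 times. Counts of single lists that changed per length are given beside them.

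For all active genes, 1386 rose and 1073 fell from BM-Mono to SC-Mono, and 918 and 454 at a coefficient of 0.2, 630 and 225 at 0.4, and 2623 rose with no TPM threshold. In SC-APC against SC-Mono 188 rose and 165 fell, and 85 and 35 at 0.2, 43 and 14 at 0.4, 385 and 292 with no threshold, and 326 and 298 by a plain 2-fold change, while 389 fell per length (320 with size factors computed per length). From BM-Mono to SC-APC 1426 rose and 1199 fell, with 503 falling at 0.2, 725 and 231 at 0.4, 2057 falling per length, and 2870 rising with no threshold.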

Other observations

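Receptors outside the 10 genes were also read. Flt3, a receptor tyrosine kinase related to Csf1r and a marker of dendritic cells and progenitors, fell by 3.04 on the log2 scale from BM-Mono to SC-Mono (37.8, 3.65 and 6.65 TPM in BM-Mono, SC-Mono and SC-APC). Kit, the stem cell factor receptor, rose by 2.88 (2.51 to 3.27) from SC-Mono to SC-APC on reads and by 2.01 per length (0.21, 1.70 and 6.92 TPM). Cd34, the most abundant of the progenitor markers in the spinal cord libraries, was at 3.03, 12.5 and 35.7 TPM. Pdgfra and Pdgfrb were not active in any library. Markers of conventional dendritic cells, of which Flt3 is 1, summed to 40.8, 20.8 and 24.97 TPM over 5 genes, led by Flt3, Batf3 and Clec9a in turn. Those of macrophages associated with the central nervous system summed to 15.7, 36.8 and 51.1 TPM over 6 genes, with Lyve1 at 0, 2 and 0 reads, and those of B cells to 8.70, 3.45 and 3.76 TPM over 4 genes, led by Cd79b, with Pax5 at 0 reads in BM-Mono.

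Of 24 other cytokine receptor chains 10 were active, and from BM-Mono to SC-Mono 4 rose and 3 fell on reads (2 and 3 per length). Of all active genes 13.8% rose and 10.7% fell on reads, and 12% and 15.9% per length. The 3 that fell were Il6ra, the IL-6 receptor, by 1.57 on the log2 scale (209 to 57.5 TPM), Il6st, its signalling chain gp130, by 1.53 (82.3 to 19.9 TPM), and Lifr by 1.86 (29.8 to 8.02 TPM). The IL-12 receptor chains rose, Il12rb1 by 4.80 and Il12rb2 by 2.76, as did Il10ra by 1.15 and Il11ra1 by 1.29, the last pair not per length. The effective length of Il10ra was alike in BM-Mono and SC-Mono (3176.4 and 3191.4 bases), so its difference comes from the scaling. Il12rb1 and Il12rb2 were under 3 TPM in BM-Mono (0.49 and 1.33 TPM) and active through SC-Mono (12.5 and 7.31 TPM). The T cell markers given above were also higher in SC-Mono, and the part of T cells in the levels of these 2 chains was not tested. Il11ra1, like Il6ra and Lifr, signals with Il6st, and so does Osmr, which had 0, 100 and 72 reads and was not active. Il10ra was at 82.2, 144 and 84.3 TPM, and Il10rb, its partner, at 79.6, 109 and 97.8 TPM. Ifnar2, a chain of the type I interferon receptor, was at 153, 150.0 and 175 TPM without a call. In SC-APC against SC-Mono 0 of the 10 rose or fell, where 3.63% of all active genes did.

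Among 10307 genes, those with the pair of log2 ratios per length nearest to a receptor gene were named over the 3 libraries, as a description. For Csf1r they were Igsf8, Ergic1 and Fhl3, at distances of 0.0872, 0.092 and 0.102 on the log2 scale. For Csf2rb they were Psme1 (0.0226), Fam102a (0.0401) and Pde3b (0.0414). For Il7r they were Plpp3 (0.120), Pdcd1lg2 (0.159) and Anpep (0.246), of which Plpp3 is listed at 0 in BM-Mono, so that its place depends on the added read. For Csf3r, Xrn1 (0.0101), Rab1a (0.0114) and Grpel1 (0.0161) were nearest. Within 0.1 lay 94 genes for Csf3r, 9 for Csf2rb, 2 for Csf1r and 0 for Il7r. These names rest on the scale: with ratios on reads, where the second value of Csf2rb is -0.40 in place of 0.35 and that of Csf1r 0.17 in place of 0.75, 0 of the 3 nearest genes were the same for Csf1r, Csf2rb and Csf3r, and 2 of 3 for Il7r.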
